A study of Mus musculus with 6 samples.

Results

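The R6 library is a set of 64 double-stranded DNA sequences in which 3 neighbouring bases of a Gli binding site take every combination. It was measured in both the R6 reaction and the R4-R6 reaction, as titled by the submitters. Its members are the 64 sequences listed under R6 in the R4-R6 table, each set against the same sequence in the unmethylated R6 block of the R6 table. All 64 were found in both tables, which with a further table hold 2094 sequence lines.

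The series has 6 samples from 3 reactions of recombinant mouse Gli protein with DNA, and 4 of them are used here: a bound and an unbound sample of each of the R6 and R4-R6 reactions. Bound DNA ran with the protein on a gel and unbound DNA ran free. In the R6 reaction the unmethylated library was mixed with barcoded top-strand hemimethylated, duplex methylated and M.SssI methylated versions of itself, M.SssI being a CpG methyltransferase. In the R4-R6 reaction the R6 library stood beside R4 and R5 libraries that vary nearby bases of the same site. The composition field of the R4-R6 samples names CTCF libraries in place of Gli ones, against their titles and block headings, and the R6 heading gives no methylation state. The titles and headings were followed. Each fraction of each reaction is 1 sample, so there is no replicate of a reaction and no p-value, and the 2 reactions also differ in the other DNA they held.

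Gli proteins are zinc finger transcription factors at the end of the Hedgehog signalling pathway, which patterns many tissues of the embryo. Their fingers contact a site centred on a run of cytosines, and bases beside that core change how well a site is held. In a competition of many sequences for one protein, the ratio of bound to unbound reads ranks the sequences by relative affinity within that reaction.

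The varied bases are called positions 11 to 13 of a 16-base site. The tables list the R6 library as 3 bases alone, so this place rests on a match to R4 sequences of the R4-R6 reaction, described further on. The sites below were copied from the 16-base sequences of the series, with the 3 varied bases in capitals and the presumed fixed bases in lower case. They are shown because the results turn on them: the strongest and weakest members, those lying farthest from the common line, and those departing most from a sum of single-base effects.
GTT, strongest in the R6 reaction: gaccacccacGTTgaa
GTC, strongest in the R4-R6 reaction: gaccacccacGTCgaa
TCC, weakest in the R6 reaction: gaccacccacTCCgaa
CCA, weakest in the R4-R6 reaction: gaccacccacCCAgaa
AAG, farthest below the line: gaccacccacAAGgaa
CAT, farthest above the line: gaccacccacCATgaa
GGG, farthest below the additive sum: gaccacccacGGGgaa
CGC, highest above the additive sum in the R6 reaction: gaccacccacCGCgaa

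The R6 reaction gave 114228 bound and 40596 unbound reads over the 64 unmethylated sequences, with 486 to 4507 bound and 168 to 2256 unbound reads each. The R4-R6 reaction gave 432781 bound and 281782 unbound reads, with 1253 to 19644 and 894 to 15893 each. The median counting standard error (SE) of a natural log ratio was 0.050 in the R6 reaction and 0.022 in the R4-R6 reaction, so the deeper reaction separates closer sequences. In the order of ratios, 58 of 63 neighbouring pairs lay within 2 counting SE of each other in the R6 reaction and 49 of 63 in the R4-R6 reaction. A value after ± is a counting SE except where it is called an SD or a regression SE. The reads come from PCR and carry no molecular identifiers, so copies of 1 molecule are counted separately and these errors cover counting alone.

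Both reactions put the same sequences at the top and the bottom. GTT had 4056 bound and 330 unbound reads in the R6 reaction, a ratio of 12.3, and 17716 and 2345 reads in the R4-R6 reaction, a ratio of 7.55. GTC had 3215 and 270 reads, a ratio of 11.9, and 14326 and 1892 reads, a ratio of 7.57. GAC came next in each, with ratios of 11.3 and 7.45. The 7 strongest sequences were the same 7 in both orders, all with G at position 11, and the exchange of GTT and GTC at the top lay within counting error. At the weak end TCC was lowest in the R6 reaction, with 547 and 679 reads and a ratio of 0.806, and it had a ratio of 0.378 in the R4-R6 reaction. CCA was lowest there, with 1253 and 3656 reads and a ratio of 0.343, against 0.986 in the R6 reaction. Of the 10 weakest sequences, 8 were shared, and of the 16 weakest, 15 were.

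The median sequence moved by 2 places between the orders, and 40 of 64 moved by 3 places or fewer. TGA moved the most, by 11 places, from 24th with a ratio of 3.55 in the R6 reaction to 35th with 1.58 in the R4-R6 reaction. CAT moved the other way by 8 places, from 29th with 3.29 to 21st with 2.30. Of 2016 pairs of sequences, 115 changed order (5.70%), and in 6 of them the difference exceeded 2 counting SE in each reaction. AAG against TCT was the clearest of these. AAG lay above TCT by 0.20 ± 0.07 on the natural log scale in the R6 reaction and below it, at -0.25 ± 0.04, in the R4-R6 reaction. The other pairs were TGA with CTC and TGA with GCC, AGG with TCT, ATA with CGT, and CCA with TCC.

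All 64 ratios were lower in the R4-R6 reaction, by a median of 1.85-fold. The log ratio of the R4-R6 reaction minus that of the R6 reaction had a median of -0.61 ± 0.20 (SD over 64 sequences) and ran from -1.17 to -0.34. Summed over the same 64 sequences, the ratio of bound to unbound reads was lower by 0.61 on the log scale. These sums hold the same counts, so they are not a separate measure of depth. The counts were not scaled for depth, so this common shift cannot be told apart from the number of reads taken from each fraction, and differences below are taken after its median was removed.

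Weak sequences fell further than strong ones. The ratios spanned 15.2-fold in the R6 reaction and 22.1-fold in the R4-R6 reaction. The regression slope of the R4-R6 log ratios on those of the R6 reaction was 1.21 ± 0.02 (regression SE), with r = 0.989 across sequences, which share their libraries and are not replicates. The sequences were also split into 32 weaker and 32 stronger by the mean of their log ratios in both reactions. This mean holds the same values as the difference, so the split is a description. Among the 32 weaker sequences the median difference was -0.83 ± 0.15 (SD), and among the 32 stronger it was -0.49 ± 0.10 (SD). Within these sets of 32 the slopes were 1.17 ± 0.05 and 1.05 ± 0.04 (regression SE). The spread of the differences was 3.63 times their median counting SE of 0.055.

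After the median was removed, a sequence was called different when it departed by more than 2 counting SE and by more than 0.22 on the natural log scale. By this rule 19 of 64 sequences were called, or 29.7%. Of these, 16 were lower in the R4-R6 reaction, 25% of all, and 3 were higher, 4.69%. The 16 lower calls were all among the 32 weaker sequences and the 3 higher calls among the stronger. Those sets were made from the same log ratios as the calls, so this is not separate support for the trend. With the mean removed in place of the median, 9 were lower and 8 higher, so the split between directions rests on the centring while the order of the differences does not.

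AAG fell the most. It had 941 bound and 723 unbound reads in the R6 reaction, a ratio of 1.30, and 1816 and 4484 reads in the R4-R6 reaction, a ratio of 0.405. Its centred difference was -0.55 ± 0.06, a 1.74-fold fall beyond the common shift. CCA followed, at -0.44 ± 0.07, and no other sequence fell by 1.5-fold. TTG went from 1.64 to 0.605, TGG from 1.18 to 0.435 and AGG from 1.22 to 0.452, with centred differences between -0.38 and -0.37. The 3 higher calls were GAT, at 0.28 ± 0.07, CAT, at 0.26 ± 0.06, and GGT, at 0.23 ± 0.04. GAT went from a ratio of 9.63 to 6.86, CAT from 3.29 to 2.30 and GGT from 4.71 to 3.21. These falls are smaller than the median fall of 1.85-fold.

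Sequences ending in G supplied most of the lower calls. Of 16 sequences with G at position 13, 10 were called lower and none higher, against 5 of 16 lower with A, 1 of 16 with C and 0 of 16 with T. The 3 higher calls all ended in T. Their median centred difference was -0.23 with G, -0.08 with A, 0.10 with C and 0.11 with T. Beside this, the shares of reads differed mainly in the bound fraction. The share of the block's bound reads taken by sequences ending in G was lower in the R4-R6 reaction by a median of 1.27-fold, while their share of unbound reads differed by 1.02-fold. Across all 64 sequences the log change of the bound share had an SD of 0.21 and that of the unbound share 0.11. Shares also depend on how much of each sequence went into a reaction, for which no separate count was used here. The share of each sequence in the block's bound and unbound reads together had r = 0.962 between reactions on the log scale. It ran from 0.63% to 3.69% in the R6 reaction and from 0.37% to 3.69% in the R4-R6 reaction. G at position 13 was also the weakest base there. Its mean log ratio was 0.51 ± 0.53 in the R6 reaction and -0.33 ± 0.67 in the R4-R6 reaction (SD over 16 sequences), so this group was also a weakly bound one.

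The distance from the fitted line takes that trend out. Under the same limits it left 2 calls. CAT was called above the line, 1.56% of sequences, at 0.27, and AAG below it, also 1.56%, at -0.34. The residuals had an SD of 0.13, which is 1.996 times their median counting SE, so the scatter about the line exceeded counting error. The sequences next farthest below the line were TTG, at -0.22, AAA, at -0.22, TGA, at -0.20, and GAA, at -0.20. Those next farthest above were CGT, at 0.21, TGC, at 0.18, TAC, at 0.17, and TCC, at 0.17.

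The last base divided the residuals. Of 32 sequences with a pyrimidine (C or T) at position 13, 25 lay above the line, and of 32 with a purine (A or G), 10 did. Their medians were 0.11 ± 0.10 and -0.07 ± 0.11 (SD). Within the purines, 3 of 16 with A and 7 of 16 with G lay above the line, with mean residuals of -0.08 and -0.06. Sequences differing in the last base alone were also paired, without any line. T in place of A at position 13 changed the log ratio by 0.02 ± 0.14 in the R6 reaction (SD over 16 pairs), with 6 pairs positive. In the R4-R6 reaction it changed it by 0.19 ± 0.19, with 13 pairs positive. The second value was the larger in 15 of 16 pairs. C in place of A gave 0.09 ± 0.27 and 0.25 ± 0.32, again larger in 15 of 16 pairs. T in place of C gave -0.07 ± 0.19 and -0.06 ± 0.21. G in place of A gave -0.67 ± 0.36 and -0.80 ± 0.46, lower in the second reaction in 13 of 16 pairs. Without a line, C and T thus stood higher against A in the R4-R6 reaction than in the R6 reaction, but G also stood lower against A. The mean ratio of T to A at position 13 was thus 1.02-fold in the R6 reaction and 1.21-fold in the R4-R6 reaction.

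Sequences presumed to be the same were also read in a second library within the same bound and unbound samples of the R4-R6 reaction. The R4 library holds 64 sequences with C at position 10, the same 3 varied bases and GAA after them, with 57580 bound and 35018 unbound reads. The R6 block differed from them by a median of -0.06 ± 0.08 (SD), against a median counting SE of 0.066, and the slope between them was 1.02 ± 0.01 (regression SE). R4 sequences with another base at position 10 lay lower, by medians of 1.18 for A, 1.13 for G and 1.14 for T, with SDs of 0.50, 0.39 and 0.32. On this match C was placed before the varied bases, at position 10. Only R4 sequences with GAA after the varied bases were compared, so G at position 14 was presumed. The spread of 0.08 within the R4-R6 reaction stands beside 0.20 between the reactions for the 64 R6 sequences. The R4 set with C was identified by its closeness to the R6 block, so the 0.08 is not an independent measure of repeatability. That 0.20 includes the slope of 1.21 between reactions, and the spread about the fitted line was 0.13 (SD).

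Set against the R6 reaction, the R4 sequences gave a slope of 1.18 ± 0.02 (regression SE), beside 1.21 for the R6 block. The R4 library and the R6 block were read from the same bound and unbound samples and were set against the same R6 reaction, so the comparisons share all 4 samples and their slopes are given side by side only. The ratio of AAG was 0.429 in the R4 library, beside 0.405 in the R6 block of the same reaction and 1.30 in the R6 reaction. TGA had 1.69, beside 1.58 and 3.55. CAT had 2.25, beside 2.30 and 3.29. Its centred difference from the R6 reaction was 0.20 with the R4 library and its distance above the line 0.18. Both were short of the limit of 0.22, so the calls of CAT were not kept there. On the line for the R4 library AAG was again farthest below, at -0.38, but CAA was farthest above, at 0.23. AAT, at 0.23, and GTC, at -0.22, also lay farther from that line than CAT. T in place of A at position 13 gave 0.18 ± 0.20 (SD over 16 pairs) in the R4 library, with 11 pairs positive. Of the sequences with T at position 13, 14 of 16 lay above the line fitted to the R4 library, and of those with C, 8 of 16, against 13 and 12 with the R6 block. By this count sequences ending in C did not lie apart there, and the division of the residuals by pyrimidine rested on T. In the pairs without a line, C in place of A gave 0.17 ± 0.31 (SD) in the R4 library, with 13 of 16 pairs positive. In the R6 reaction it gave 0.09 ± 0.27 (SD), with 10 pairs positive. With the R4 library 11 of the 16 lower calls and 1 of the 3 higher calls were kept. CAT and GGT were lost among the higher calls, and AAA at -0.17, CCG, GGG at -0.08, TAG at -0.13 and TCA among the lower. CCG moved far. Its ratio was 0.494 in the R4 library and 0.380 in the R6 block, and its centred difference from the R6 reaction was -0.23 ± 0.05 with the R6 block but -0.00112 with the R4 library.

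The preferences for single bases had the same direction and were mostly larger in the R4-R6 reaction. G in place of A at position 11 raised the ratio by a mean of 2.12-fold in the R6 reaction and 2.68-fold in the R4-R6 reaction, with 16 of 16 pairs positive in each and the second value larger in all 16. G in place of C at that position gave 2.64-fold and 3.07-fold. At position 12, T in place of C raised the ratio by 2.81-fold and 3.12-fold, with 16 of 16 pairs positive in each. At position 13, T in place of G raised it by 1.99-fold and 2.67-fold, larger in the second reaction in 16 of 16 pairs. A few contrasts were near 0 in both: T in place of C at position 11 gave -0.02 ± 0.18 and -0.09 ± 0.23 (SD over 16 pairs), and T in place of A at position 12 gave 0.14 ± 0.39 and 0.09 ± 0.52.

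Around the strongest site, single changes were repeated within counting error with 1 exception. Substitutions are written as the base of GTT, its position and the new base. G11T, the most harmful, lowered the ratio 4.33-fold in the R6 reaction and 5.90-fold in the R4-R6 reaction, a difference of -0.31 ± 0.08. G11C lowered it 3.72-fold and 3.66-fold, and G11A 2.35-fold and 2.66-fold. At the middle base, T12C lowered it 3.26-fold and 3.21-fold, T12G 2.61-fold and 2.35-fold, and T12A 1.27-fold and 1.10-fold. At the last base T13G lowered it 1.68-fold and 1.75-fold and T13A 1.23-fold and 1.24-fold. T13C gave -0.03 ± 0.09 and 0.002 ± 0.03, within counting error in both. Apart from G11T, the differences between reactions ran from -0.13 to 0.15, each within 2 of its counting SEs. The R4 library gave falls of 6.03-fold for G11T, beside 5.90-fold in the R6 block, and 4.39-fold for G11C, beside 3.66-fold. For T13C it gave -0.24 ± 0.09, beyond 2 counting SE, where the R6 block gave 0.002.

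The 3 positions did not act as a plain sum, and the departures were shared by the reactions. A least-squares model with 1 effect per base and position held 84.6% of the variance in the R6 reaction and 83.3% in the R4-R6 reaction. The residuals of the 64 sequences, fitted separately in each, had r = 0.971 and rho = 0.972 across sequences and a slope of 1.24 ± 0.04 (regression SE). The 2 fits share no sample, but both come from the same 64 sequences and model. Of 64 residuals, 61 had the same sign, and of 36 beyond 0.2 in size in the R6 reaction, 33 were beyond 0.2 with the same sign in the R4-R6 reaction. GGG had the lowest residual in each, -0.82 and -1.01. The highest in the R6 reaction was CGC, with 0.50, and in the R4-R6 reaction GCG, with 0.60. When each pair of neighbouring bases was given its own effect, the share of variance was 98.5% in the R6 reaction and 98.6% in the R4-R6 reaction, with 28 terms in place of 10 for 64 values.

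The cost of G at the last position depended on the middle base. With G at position 12, T13G changed the log ratio by -1.11 ± 0.04 in the R6 reaction and -1.56 ± 0.05 in the R4-R6 reaction (SD over 4 pairs that differ at position 11), which are 3.03-fold and 4.77-fold falls. With A at position 12 the changes were -0.82 ± 0.20 and -1.21 ± 0.19. With T there they were -0.61 ± 0.09 and -0.79 ± 0.19, and with C -0.21 ± 0.15 and -0.36 ± 0.18. The order of G, A, T and C at position 12 was thus the same in both reactions. In the R4-R6 reaction the 4 values with G ran from -1.61 to -1.50, those with A from -1.39 to -1.02, those with T from -1.01 to -0.56 and those with C from -0.52 to -0.11, without overlap. In the R6 reaction G overlapped with A and A with T, while C stood apart, from -0.39 to -0.03. The 4 sequences with C then G at positions 12 and 13, ACG, CCG, GCG and TCG, lay above the additive sum by 0.32 to 0.46 in the R6 reaction and by 0.41 to 0.60 in the R4-R6 reaction. The 4 with G then G lay below it, by means of -0.34 ± 0.34 and -0.45 ± 0.39 (SD). In the R4 library T13G gave -1.51 with G and -0.35 with C at position 12.

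The effect of G at the middle position depended in turn on the first base. In place of T at position 12, G changed the log ratio by -0.99 ± 0.40 after G at position 11 and by -0.44 ± 0.24 after A in the R6 reaction (SD over 4 pairs). After C or T it gave 0.12 ± 0.32 and 0.08 ± 0.29. In the R4-R6 reaction the changes were -1.05 ± 0.56 after G, -0.49 ± 0.34 after A, 0.18 ± 0.41 after C and 0.22 ± 0.41 after T. The 8 pairs with G or A at position 11 were negative in each reaction, while those with C or T had both signs. TTT had a ratio of 2.83 and TGT 3.37 in the R6 reaction, and 1.28 and 2.06 in the R4-R6 reaction. GTT, in contrast, went from 12.3 to 4.71 on becoming GGT, and from 7.55 to 3.21. The bases at positions 11 and 12 with the lowest mean residual were G followed by G, at -0.45 ± 0.25 and -0.52 ± 0.34 (SD, n = 4 sequences), then A followed by A, at -0.29 ± 0.13 and -0.39 ± 0.27.

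Double changes from GTT show the same in single sites. The 27 possible double changes were compared with the sum of their single changes, which all share GTT. In 14 the departure exceeded 2 counting SE in the R6 reaction and in 21 in the R4-R6 reaction. It did so in both for 13, with 9 above the sum and 4 below it, and the sign was the same in all 13. G11T with T12G, giving TGT, lay above the sum by 1.13 ± 0.09 in the R6 reaction and 1.33 ± 0.04 in the R4-R6 reaction. G11C with T12G, giving CGT, lay above it by 1.08 ± 0.10 and 1.05 ± 0.04. T12G with T13G, giving GGG, lay below it by -0.60 ± 0.09 and -1.02 ± 0.03, and T12A with T13G, giving GAG, by -0.60 ± 0.10 and -0.83 ± 0.04. GGG had 3456 bound and 2256 unbound reads in the R6 reaction, a ratio of 1.53, and 10494 and 15893 reads in the R4-R6 reaction, a ratio of 0.660.

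The R6 sequences in the R4-R6 reaction, whose methylation is not stated, were set beside the 4 states of the R6 reaction. The classes of CpG take C before and the presumed G after the varied bases. By these, 30 sequences hold no CpG, 11 hold one starting at position 10, 11 one starting at position 13, and 4 hold both. The other 8 have a CpG within the varied bases and are left out of these medians. Median log ratios in the R4-R6 reaction were 0.17 without CpG, 1.17 with CpG at position 10, 0.78 at position 13 and 1.63 at both. The unmethylated block gave the same order, with 1.002, 1.66, 1.26 and 2.05. The M.SssI block gave another, with 1.13, 1.33, -0.99 and -1.20. The hemimethylated block gave -0.14, 1.01, 0.30 and 0.95, and the duplex block -0.26, -0.46, -0.31 and -0.68. Per-sequence differences from the R4-R6 values had an SD of 0.20 for the unmethylated block, 0.32 for the hemimethylated, 1.20 for the M.SssI and 1.31 for the duplex block. Relative to sequences without CpG, those with a CpG at position 13 lay 0.22 ± 0.16 (SD) above the unmethylated block, 0.21 ± 0.26 above the hemimethylated, 0.31 ± 0.48 above the duplex and 2.17 ± 0.48 above the M.SssI block. This contrast thus sets the M.SssI block apart and does not separate the other 3 states. The 4 sequences with both CpGs lay 0.33 ± 0.05 above the unmethylated block and 0.52 ± 0.25 above the hemimethylated (SD). They lay 1.66 ± 0.38 above the duplex and 3.41 ± 0.31 above the M.SssI block, so there the duplex block stood apart too. With CpG at position 10 the values were 0.27 ± 0.13, 0.42 ± 0.30, 1.43 ± 1.24 and 1.03 ± 0.25, in the same order of blocks.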

How the data were processed

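Per the file headers, the authors deposited whole-number read counts of bound and unbound DNA per sequence and the ratio of bound to unbound counts, unscaled for depth. All 828 lines of the tables used were checked to be whole numbers. How reads were counted and filtered is not given in the sources used here. The ln of bound over unbound was computed after adding 0.5 to each count, with at least 10 reads required in each fraction, which all 64 sequences passed. The counting SE was the square root of the summed reciprocal counts. Differences between reactions were centred on their median. The line and the additive model were ordinary least squares. The named sequences were the 5 highest and 5 lowest in each reaction, the 5 largest differences and line residuals in each direction, and the single-base variants of GTT. Others were named after their values were seen. Members, rules and lists were chosen with earlier results of these data known. Counts of the 16-base table were not used. The calculation was tested on simulated counts in which log ratios rose equally in both reactions, without the slope of 1.21 seen here. That test does not cover calls made under this slope. Python 3.11.15, numpy 2.4.6 and pandas 2.3.3 were used.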

Additional observations from a re-analysis of the deposited data

How the results depend on the processing

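The slope of 1.21 ran from 1.18 to 1.246 when the 16 sequences sharing a base at a position were left out in turn, lowest without G at position 13. It was 1.24 with errors in both axes, by reverse regression and with weights. Pseudocounts of 0 and 1, scaling by block totals and a limit of 3 SE left the 19 calls at 19. A minimum of 100 reads did too, but it removed no sequence, so its result could not differ. The R4 sequences in place of the R6 block, an alternative added after seeing the data, gave 14, 11 lower and 3 higher. The higher ones were GAT, GCT and GTT, with GAT alone shared, and all 11 lower ones were shared. Without the weakest 25% of sequences there were 9 calls, 9 lower and 0 higher, the slope was 1.16, and the fold ranges were 7.84 and 10.8, on fewer sequences. Centring on the mean gave 8 higher and 9 lower calls. The limit of 2 SE alone gave 42 calls, 17 higher and 25 lower, and 2 SE with 1.5-fold gave 2, 0 higher and 2 lower. Distance from the fitted line gave 2, 1 in each direction, with CCC at 0.000756, CCG at 0.0672 and TCG at 0.0103, which had been called lower. With neighbouring pairs in the model, r of the residuals between reactions was 0.820. The cause was not tested where none is named. The lowest counts were 168 unbound reads in the R6 reaction and 95 bound and 135 unbound in the R4 set. No paired analysis was possible because each fraction of each reaction is 1 sample.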
